A study of Homo sapiens with 2 samples.

Results

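Integrins and laminins are the receptors and the ligands of a main route by which epithelial cells hold on to the basement membrane, the sheet of matrix beneath them. An integrin is a pair of an alpha and a beta chain that spans the plasma membrane, and the alpha chain largely sets which matrix protein is bound. A laminin is a trimer of an alpha, a beta and a gamma chain that is assembled inside the cell and secreted. Bound integrins gather talin, kindlins, vinculin and kinases at focal adhesions and so link the matrix to the actin cytoskeleton.

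The genes described here are the protein-coding integrin chains ITGA1 to ITGA11, ITGA2B, ITGAE, ITGAL, ITGAM, ITGAV, ITGAX and ITGB1 to ITGB8, and laminin chains of the LAMA, LAMB and LAMC families. The rule names them by symbol, and the group was picked for description with earlier results of these data known. Of the 60711 genes in the table, 36 are described, 25 integrin and 11 laminin genes, and 28 had a mean of at least 1 over the libraries (20 integrins and 8 laminins). Of the other members, ITGA8 has no value, ITGA9, ITGB7, LAMA1 and LAMB4 are listed at 0 in both libraries, and ITGA10, ITGAL and LAMA2 are listed at 0 in 1 library with a mean below 1.

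The study transfected A549 cells, an established line of human lung adenocarcinoma, with control siRNA or with a siRNA against MILIP, a long noncoding RNA also named MAFG-AS1, and sequenced their RNA after 48 h. Both groups were the same line in the same medium, with 1 library each, so no test between the conditions was possible and no p-value is given. With 1 MILIP siRNA, loss of MILIP and other effects of that siRNA cannot be told apart. Values are CPM (reads per gene relative to the library total) as scaled by the authors, and every value above 0 is a whole multiple of a step that was read as 1 sequencing read. No value is below 20 steps, so a single step was not seen by itself, and the read numbers and counting limits given here rest on that reading. By these steps the control library holds 20300800 reads and the MILIP siRNA library 19460956, and lower genes are listed at 0. MILIP itself was at 29.5 CPM (588 reads) with control siRNA and 3.22 CPM (64 reads) with MILIP siRNA, a log2 ratio of −2.85. Marker genes of cell types were read beside the A549 label. They bear on cell type and cannot tell A549 from other epithelial lines. All 6 epithelial markers were above 0, with sums of 4787 CPM in the control and 4518 CPM with MILIP siRNA. Within that list only KRT7 had a lower value with MILIP siRNA, at 1508 and 810.0 CPM. KRT8 was at 2543 and 2875 CPM and KRT18 at 641 and 655 CPM. KRT19 (62.1 and 122 CPM), CDH1 (30.5 and 50.8 CPM) and EPCAM (2.65 and 5.93 CPM) also had higher values with MILIP siRNA. Of 7 alveolar type II markers only NAPSA was above 0, at 1.05 and 1.26 CPM, and SFTPB, SFTPC, SFTPD and NKX2-1 were listed at 0. Of 6 fibroblast markers 5 are listed at 0 and DCN has no value, and all 5 endothelial markers are listed at 0. A listed 0 need not mean that a gene is silent, since ILK, an adaptor that adherent cells generally use, is listed at 0 in both libraries.

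Log2 ratios are MILIP siRNA over control siRNA with a pseudocount of 1, and a gene is called higher or lower where the values differ by at least 1.5-fold on that scale. The limits in parentheses are 95% Clopper-Pearson limits of the log2 ratio without the pseudocount. They cover counting error only, and the spread between cultures is unknown.

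Promoter sequences of 5 genes are shown because they are those of the lower genes with a window, ITGAV, ITGA2, LAMC1 and LAMA5, and of ITGB1, the most abundant member, whose value was not lower. They come from RefSeq (GRCh38.p14), which gave a window for 26 of the 36 members, 25 of them within 500 bases of the start of the main transcript. ITGA3 had none there. Each is the part of the 250 bases before the start that lies outside annotated exons, written 5′ to 3′ along the gene. Capitals mark a GC box, GGGCGG or its reverse complement CCGCCC, the core of the site bound by SP1.
ITGAV, chr2:186589806-186590055, + strand: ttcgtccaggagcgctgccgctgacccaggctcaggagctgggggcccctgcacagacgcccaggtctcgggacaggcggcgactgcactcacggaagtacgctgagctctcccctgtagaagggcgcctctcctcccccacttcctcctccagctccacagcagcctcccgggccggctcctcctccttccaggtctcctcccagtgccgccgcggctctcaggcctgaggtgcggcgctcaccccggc
ITGA2, chr5:52989102-52989325, + strand: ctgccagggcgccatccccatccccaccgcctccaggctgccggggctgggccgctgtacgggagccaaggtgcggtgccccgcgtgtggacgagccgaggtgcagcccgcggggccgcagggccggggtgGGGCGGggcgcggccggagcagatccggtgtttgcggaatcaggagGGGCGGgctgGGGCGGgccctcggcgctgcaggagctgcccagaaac
LAMC1, chr1:183023170-183023419, + strand: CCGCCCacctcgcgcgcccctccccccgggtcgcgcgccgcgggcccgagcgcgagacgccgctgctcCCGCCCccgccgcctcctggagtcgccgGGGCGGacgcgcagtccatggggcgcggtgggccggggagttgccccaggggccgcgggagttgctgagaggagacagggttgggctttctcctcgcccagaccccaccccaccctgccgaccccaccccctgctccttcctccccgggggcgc
LAMA5, chr20:62367313-62367562, − strand: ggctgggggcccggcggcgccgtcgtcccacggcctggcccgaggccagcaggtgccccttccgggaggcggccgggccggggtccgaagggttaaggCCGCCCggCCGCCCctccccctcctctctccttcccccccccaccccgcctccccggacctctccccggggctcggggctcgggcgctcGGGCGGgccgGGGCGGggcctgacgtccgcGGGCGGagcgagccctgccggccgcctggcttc
ITGB1, chr10:32958233-32958480, − strand: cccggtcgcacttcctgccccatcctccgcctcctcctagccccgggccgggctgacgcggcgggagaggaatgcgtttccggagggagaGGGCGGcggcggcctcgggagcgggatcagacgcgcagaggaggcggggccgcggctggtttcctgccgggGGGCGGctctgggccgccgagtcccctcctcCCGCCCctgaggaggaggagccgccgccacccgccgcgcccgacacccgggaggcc

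The ITGAV stretch holds no GC box, while those of ITGA2, LAMC1 and ITGB1 hold 3 each and that of LAMA5 holds 5. The ITGA2 window holds 4, of which 3 lie in the stretch shown. Over all RefSeq windows of this length, 42.6% of 35116 hold a GC box on either strand. Among members with a mean of at least 1 it was found in 12 of 20 windows (60%), in 3 of the 4 windows of lower genes and in 1 of the 4 windows of higher genes. The median GC content was 70.6% in the members' windows, 78% in those of lower and 59.8% in those of higher genes, against 58% in all windows, and its part in the matches was not tested. The AP-1 site TGACTCA, searched on both strands, was in 1 of the 20 windows, that of LAMB3, against 4.20% of all windows. The TATA box TATAAA was in 0 of 20, against 10.7% of all windows. Matches of different motifs among these cannot overlap in their letters. These are matches of letters in a short window and no record of binding.

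Several abundant alpha chains and the gamma chain LAMC1 were lower with MILIP siRNA, while the abundant beta chains stayed within 1.5-fold. Of the 28 genes, 5 were lower (17.9%) and 6 were higher (21.4%), beside 13.8% lower and 11.1% higher over all 13521 genes that reached this mean. The lower genes were ITGAV, ITGA2, ITGA3, LAMC1 and LAMA5, and the higher genes were ITGA11, ITGAX, ITGB6, ITGB8, ITGB2 and LAMA4. The median log2 ratio of the members was 0.09, beside −0.03 over all genes, and it was −0.10 over members with a mean of at least 5. Level divided the directions. Among the 15 members with a mean of at least 25 CPM, 5 were lower (33.3%) and 0 higher, with a median of −0.27, beside 15% lower and 8.29% higher over the 7129 genes at that level. Among the 13 members with a mean of 1 to under 25, 6 were higher (46.2%) and 0 lower, with a median of 0.51, beside 14.3% higher and 12.6% lower over 6392 genes. LAMA4 passed the minimum mean only through the library in which it was high, so the count of higher genes at low level includes a gene that had to differ.

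The lower alpha chains were receptors for different matrix proteins. ITGAV is the alpha chain of several RGD-binding integrins, which among them bind vitronectin and fibronectin and activate latent TGF-beta. It lies at chr2:186590065-186680901 on the + strand (GRCh38) and was at 404 CPM (8063 reads) with control siRNA and 101 CPM (2018 reads) with MILIP siRNA. This was 3.98-fold lower, a log2 ratio of −1.98 (−2.06 to −1.92), the lowest of the members. ITGA2, the alpha chain of a collagen receptor on epithelial cells and platelets, lies at chr5:52989326-53094779 on the + strand and was at 235 CPM and 83.2 CPM, a log2 ratio of −1.49 (−1.58 to −1.42). ITGA3, the alpha chain of a laminin receptor, was the most abundant alpha chain. It lies at chr17:50055968-50090481 on the + strand and was at 1180 CPM and 742 CPM, 1.59-fold lower, a log2 ratio of −0.67 (−0.70 to −0.64). For all 3 the limits lie wholly beyond a 1.5-fold decrease.

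ITGA5 and ITGA6 were below the control value but within 1.5-fold. ITGA5, the alpha chain of the classical fibronectin receptor, was at 110 CPM and 80.5 CPM, a log2 ratio of −0.44 (−0.54 to −0.35). ITGA6, the laminin-binding chain that pairs with ITGB1 or ITGB4, was at 149 CPM and 123 CPM, a log2 ratio of −0.27 (−0.35 to −0.19). ITGA6-AS1 and other genes share 5.37% of the exon bases of ITGA6. ITGAE, whose product pairs with ITGB7 and binds E-cadherin in lymphocytes, was at 34.0 CPM and 31.7 CPM, and its limits (−0.26 to 0.06) include no difference. Of its exon bases, 7.59% are shared with other genes, among them HASPIN.

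The remaining alpha chains were below 25 CPM in both libraries. ITGA11, the alpha chain of a collagen receptor known from fibroblasts, was at 5.66 CPM (113 reads) with control siRNA and 17.4 CPM (346 reads) with MILIP siRNA, a log2 ratio of 1.47 (1.31 to 1.94). ITGAX, a leukocyte chain that pairs with ITGB2, was at 8.06 CPM (161 reads) and 20.6 CPM (409 reads), a log2 ratio of 1.25 (1.08 to 1.62). ITGAM, another partner of ITGB2, was at 7.11 CPM and 9.05 CPM, a log2 ratio of 0.31. Both ITGA11 and ITGAX were higher, and the value of ITGAM was within 1.5-fold. Beside the leukocyte chains, CD14 was the only 1 of 4 leukocyte markers above 0, at 4.46 CPM and 9.60 CPM. PTPRC and CD3E have no value, LYZ is listed at 0, and the part of such cells in the values was not tested.

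ITGA1, the alpha chain of another collagen receptor, was at 4.96 CPM and 7.49 CPM, a log2 ratio of 0.51, and 6.39% of its exon bases are shared with other genes including PELO. Without the pseudocount its log2 ratio was 0.60 (0.22 to 0.98), just past 1.5-fold, so its call depends on the pseudocount. ITGA7, a laminin-binding chain of muscle, was at 4.86 CPM and 5.78 CPM. ITGA2B, the platelet fibrinogen receptor chain, was at 2.91 CPM and 2.72 CPM, and ITGA4, which binds VCAM1 and fibronectin, at 1.80 CPM and 1.61 CPM. The limits of ITGA7, ITGA2B and ITGA4 all include no difference. Summed over the 13 alpha chains, the values were 2147 CPM with control siRNA and 1227 CPM with MILIP siRNA, with 3 genes lower and 2 higher.

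No beta chain was lower by 1.5-fold. ITGB1, the common partner of most alpha chains in adherent cells, lies at chr10:32900319-33005792 on the − strand and was by far the most abundant member. It was at 2986 CPM (59621 reads) with control siRNA and 3369 CPM (67000 reads) with MILIP siRNA, a log2 ratio of 0.17 (0.16 to 0.19). ITGB5, which pairs with ITGAV in a vitronectin receptor, was at 444 CPM and 570 CPM, a log2 ratio of 0.36 (0.32 to 0.40). ITGB4, the hemidesmosome chain that pairs only with ITGA6, was at 102 CPM and 82.5 CPM, a log2 ratio of −0.30 (−0.40 to −0.21). The values of ITGB1 and ITGB5 were thus above the control by less than 1.5-fold, and that of ITGB4 below it by less than 1.5-fold.

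The other beta chains were below 25 CPM in both libraries. ITGB6, an epithelial partner of ITGAV that activates TGF-beta, was at 2.25 CPM (45 reads) and 5.93 CPM (118 reads), a log2 ratio of 1.09 (0.89 to 1.93), and 20.6% of its exon bases are shared with another annotated gene. ITGB8, a further activator of TGF-beta with ITGAV, was at 1.00 CPM (20 reads) and 3.22 CPM (64 reads), a log2 ratio of 1.08 (0.94 to 2.49). ITGB2, the leukocyte beta chain, was at 1.80 CPM (36 reads) and 3.67 CPM (73 reads), a log2 ratio of 0.74 (0.43 to 1.64). These 3 were higher, and their few reads leave wide limits. ITGB3, the beta chain of the platelet and endothelial vitronectin receptors, was at 3.56 CPM and 4.98 CPM, a log2 ratio of 0.39, and 51.6% of its exon bases are shared with another annotated gene. Summed over the 7 beta chains, the values were 3540 CPM and 4039 CPM, with 3 genes higher and 0 lower.

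To set the chains of a pair side by side, levels were divided by the length of the main transcript (CPM per kb). Of 23 known integrin pairs, 17 had both chains at a mean of at least 1. The 9 alpha partners of ITGB1 summed to 383 CPM per kb with control siRNA and 224 CPM per kb with MILIP siRNA, and ITGB1 was at 789 and 890 CPM per kb. Transcripts of ITGB1 thus exceeded those of all its alpha partners in both libraries. Without ITGAV the partners summed to 326 and 209 CPM per kb. The level of ITGAV was 57.4 CPM per kb in the control and 14.4 with MILIP siRNA. ITGB5 was at 101.5 and 130.5 CPM per kb, so the ratio of ITGB5 to ITGAV went from 1.77 to 9.04. In the ITGA6 and ITGB4 pair of hemidesmosomes, the ratio of alpha to beta level was 1.54 and 1.57, both chains being below the control by less than 1.5-fold. These are levels of transcripts, and chains of a pair were not measured as protein.

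Of the laminins, LAMC1 and LAMA5 were lower. LAMC1, the gamma chain of many laminins, lies at chr1:183023460-183145592 on the + strand and was at 583 CPM (11643 reads) with control siRNA and 285 CPM (5663 reads) with MILIP siRNA. This was 2.05-fold lower, a log2 ratio of −1.03 (−1.08 to −0.99). LAMC3, a less widely expressed gamma chain, was at 8.36 CPM and 6.64 CPM, a log2 ratio of −0.29 (−0.67 to 0.00).

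LAMA5, the alpha chain of laminin-511 and laminin-521, the main laminins of adult epithelial basement membranes, lies at chr20:62307955-62367312 on the − strand and was at 1001 CPM and 647 CPM. This was 1.55-fold lower, a log2 ratio of −0.63 (−0.66 to −0.60), the lower gene nearest to the threshold. LAMA3, an alpha chain of epithelial laminins, was at 109 CPM and 97.5 CPM, a log2 ratio of −0.16 (−0.25 to −0.08). LAMA4, the alpha chain of endothelial and muscle laminins, reached 2.21 CPM (44 reads) with MILIP siRNA and is listed at 0 in the control. Its log2 ratio of 1.68 depends on the pseudocount and is no bound on the fold. The 3 alpha chains summed to 1110 CPM and 747 CPM.

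The beta chains of laminins stayed within 1.5-fold. LAMB1, the beta chain of laminin-511, was at 533 CPM and 535 CPM, a log2 ratio of 0.00 (−0.03 to 0.04). LAMB2, the beta chain of laminin-521, was at 87.8 CPM and 119 CPM, a log2 ratio of 0.43 (0.35 to 0.53). LAMB3, a beta chain of epithelial laminins, was at 34.7 CPM and 48.5 CPM, a log2 ratio of 0.47 (0.34 to 0.62). They summed to 656 CPM and 702 CPM, a sum that was not below the control.

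Chains of the same trimer differed in their ratios. For laminin-511, LAMA5 was at 87.6 and 56.6 CPM per kb, LAMB1 at 93.1 and 93.4, and LAMC1 at 73.9 and 36.1. LAMC1 was the lowest chain of laminin-511 in both libraries. For laminin-521, LAMB2 was the lowest chain, at 15.5 and 21.0 CPM per kb.

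**Figure D1:**
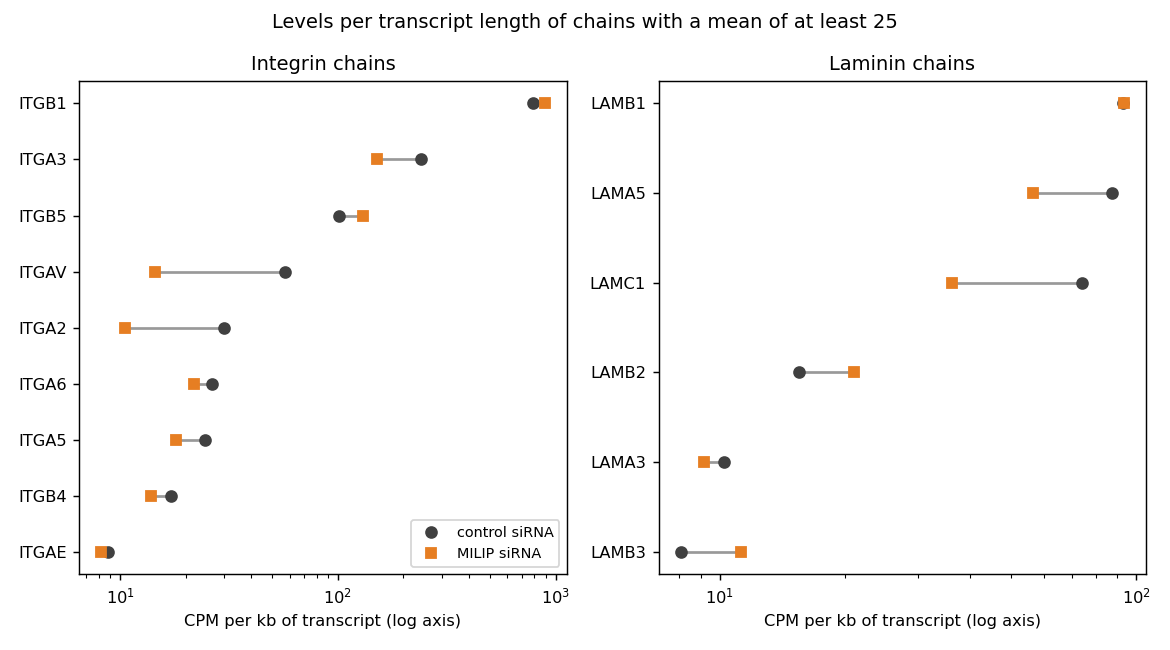
Level per transcript length (CPM per kb, log axis) of the 9 integrin chains (left) and the 6 laminin chains (right) with a mean of at least 25 CPM, with control siRNA (dark circles) and MILIP siRNA (orange squares), 1 library each. ITGB1 stays at the top of the integrins (789 and 890 CPM per kb) while ITGAV moves from 57.4 to 14.4, and LAMC1 moves from 73.9 to 36.1 while LAMB1 is at 93.1 and 93.4.

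Some members are neighbours in the genome. ITGA1 and ITGA2 lie on chromosome 5 with a gap of 30.1 kb, with log2 ratios of 0.51 and −1.49. ITGAM and ITGAX lie on chromosome 16 with a gap of 22.2 kb, with log2 ratios of 0.31 and 1.25.

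Across all genes the log2 ratio moved with the GC content of the transcript. In 5 groups of equal size from the lowest to the highest GC content, the medians were −0.21, −0.13, −0.06, 0.09 and 0.18. ITGAV and ITGA2 are poor in GC (38.3% and 40.2%), while ITGA3 and LAMA5 are rich in it (60.9% and 66.4%). With this trend removed, a choice made after the data were seen, the log2 ratios were −1.71 for ITGAV, −1.31 for ITGA2, −0.82 for ITGA3, −0.84 for LAMA5, −0.99 for LAMC1 and 0.35 for ITGB1. All 5 lower and all 6 higher genes remained past 1.5-fold, and ITGA5 was then also lower and ITGA1 also higher.

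Genes that work with integrins and laminins were followed in 4 lists. Of 39 extracellular ligands other than laminins and collagens, 30 had a mean of at least 1, and 14 were higher (46.7%, beside 11.1% of all genes) and 5 lower (16.7%, beside 13.8%), with a median log2 ratio of 0.54. At 2-fold 8 were higher and 3 lower, beside 3.48% higher and 4.62% lower over all genes. Here and in the other lists, the genes named as highest or lowest are those with a mean of at least 5. VTN, vitronectin, a ligand of ITGAV integrins, was at 9.22 CPM and 38.8 CPM, a log2 ratio of 1.96. The fibrinogen chains FGB (7.11 and 19.6 CPM) and FGA (15.2 and 39.0 CPM) were higher too. The lowest in the list were TGFB2, a TGF-beta (62.5 and 19.9 CPM, a log2 ratio of −1.61), and the junction proteins JAM3 (15.0 and 4.32 CPM) and F11R (23.2 and 10.8 CPM). Whether each listed protein, TGFB2 among them, binds an integrin was not tested.

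Of 25 basement membrane partners and other laminin receptors, 23 had a mean of at least 1, and 5 were higher (21.7%, beside 11.1% of all genes) and 3 lower (13.0%, beside 13.8%, so near the share of all genes), with a median of 0.24. At 2-fold 2 were higher and 0 lower, beside 3.48% higher and 4.62% lower over all genes. PLEC, plectin, which ties ITGB4 to keratin filaments, was at 1126 CPM and 572 CPM, a log2 ratio of −0.98. DST, dystonin, whose epithelial form is a hemidesmosome plaque protein, was at 153 CPM and 91.8 CPM. SGCB, a sarcoglycan, was within 1.5-fold at 57.6 CPM and 39.8 CPM. The highest were the collagen IV chain COL4A4 (8.72 and 18.5 CPM), SMOC1 (27.0 and 55.1 CPM) and SPARC (27.9 and 51.9 CPM), which encode secreted matrix proteins.

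Of 43 cytoplasmic adaptors and focal adhesion proteins, 41 had a mean of at least 1, and 7 were higher (17.1%, beside 11.1% of all genes) and 4 lower (9.76%, beside 13.8%), with a median of 0.02, beside −0.03 over all genes. With the GC trend removed the median was −0.12 and 4 were higher, beside 10.9% of all genes. At 2-fold 0 were higher and 0 lower, beside 3.48% and 4.62% of all genes. FERMT1, the kindlin of epithelial cells, was at 55.3 CPM and 30.1 CPM, and VCL, vinculin, at 556 CPM and 313 CPM, a log2 ratio of −0.83. CRKL, an adaptor, was at 101 CPM and 60.3 CPM. The highest with a mean of at least 5 were the kinase PTK2B (10.3 and 18.4 CPM), the tensin TNS2 (24.9 and 41.6 CPM) and the filamin FLNC (3.71 and 6.54 CPM).

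Of 12 membrane proteins that associate with integrins, 11 had a mean of at least 1, and 1 was higher (9.09%, near the 11.1% of all genes) and 0 lower, beside 13.8%, with a median of 0.13. With the GC trend removed 0 were higher, beside 10.9% of all genes. BSG, basigin, was at 535 CPM and 806 CPM, a log2 ratio of 0.59, at the 1.5-fold threshold. SLC3A2 (758 and 1016 CPM), which binds beta chains, and the tetraspanin CD63 (499 and 668 CPM) were within it. CD47 (94.2 and 64.7 CPM), CD82 (12.2 and 8.40 CPM) and CD9 (93.3 and 77.9 CPM) had the lowest ratios, also within 1.5-fold.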

How the data were processed

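RNA from A549 cells was sequenced in 1 control siRNA and 1 MILIP siRNA library. The submitters' processing notes name TopHat2 2.0.12, HTSeq 0.6.1 and hg38, and the annotation, strand use and normalization are not given in the sources used here. For every gene and library the authors deposited a single value, used here as CPM with a further scaling per library, since the values sum to 1016809 and 978499 and all above 0 are whole multiples of 1 step (tolerance 0.01 step). The columns of the authors' own comparison (fold change, p-value, q-value and call) were not used.

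Log2 ratios used a pseudocount of 1 over 13521 genes whose mean reached 1. Among the genes the rules cover, 1 member and 1 marker are not reported here and are left out of the counts of members and markers. The members, lists and rules were chosen with earlier results of these data known. The text names every member with a mean of at least 1, MILIP, and from each partner list the 3 highest and 3 lowest log2 ratios where the mean reached 5. Main transcripts, GC content and exon overlaps came from GENCODE release 29 (GRCh38). Alternatives were median-of-ratios scaling, a 2-fold threshold, a minimum mean of 5, no minimum and a pseudocount of 0.1, and, added after the data were seen, removal of the GC trend in 50 bins and no pseudocount. The calculations were tested on simulated data. Software was scipy 1.17.1, pandas 2.3.3, numpy 2.4.6 and matplotlib 3.10.9 under Python 3.11.15.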

Additional observations from a re-analysis of the deposited data

How the results depend on the processing

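No member past 1.5-fold, nor MILIP, changed direction under the alternatives run. The 5 lower members were lower in each of them except at a 2-fold threshold, which left 3 lower and 5 higher, beside 4.62% lower and 3.48% higher over all genes. With a mean of at least 5, 2 members were higher (ITGA11 and ITGAX) and the median of the members was −0.097 in place of 0.09. This minimum left out ITGB2, ITGB3, ITGB6, ITGB8 and LAMA4, with log2 ratios above 0, and ITGA4 and ITGA2B, with ratios below 0. Of all genes at this minimum, 10.1% were higher and 14.9% lower. Without a filter, 8 members were higher and 6 lower, beside 14.0% and 15.2% of all genes. With a pseudocount of 0.1, 7 members were higher, now with ITGA1, beside 13.3% of all genes. ITGA1 was also higher without a pseudocount, where LAMA4 has no ratio. At 2-fold, 0 adaptors were higher and 0 lower, 2 basement membrane partners were higher and 0 lower, 8 ligands were higher and 3 lower, and 0 membrane associates were higher. With the GC trend removed, 4 adaptors were higher with a median of −0.12, and 0 membrane associates were higher with a median of 0.038. Over all genes, 10.9% were higher in that setting. No paired analysis was possible because the control and the MILIP siRNA group hold 1 library each, which also leaves no library to omit. Few reads limit the higher members, as ITGB8 rests on 20 and 64 reads.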
